A study of Mus musculus with 14 samples.

Results

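The immediate early and activity-induced genes described here are Npas4, Fos, Fosb, Jun, Junb, Egr1, Nr4a1, Atf3, Ier2 and Dusp1. They were taken by gene symbol from 3 tables of gene counts, and are 10 of the 37310 gene identifiers in each table. All 10 were found, and all 10 passed the filter on low counts in each table.

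RNA sequencing was carried out on 14 mouse libraries in 6 groups, each labelled with the C57BL/6 strain background. β-cells, which make and release insulin, were profiled from wild-type mice at postnatal day 6 (neonatal, 3 libraries) and postnatal day 45 (adult, 3 libraries). The labels do not say how these cells were purified. Whole islets of 8-week-old mice came from a TSC1 knockout (RC TSC1 KO, 2 libraries) and its control (RC control, 2 libraries). The design text places the knockout in β-cells, but names no promoter or Cre line, and the meaning of RC is not stated. TSC1 is a negative regulator of the growth kinase complex mTORC1. Whole islets of 4-week-old mice came from the BKS Db group (2 libraries) and its control (BKS control, 2 libraries). The prefix BKS names another background than the C57BL/6 label of these libraries, and which of them holds cannot be told. The db allele is known as a leptin receptor mutation that causes obesity and diabetes. No label ties the libraries of a group to different mice, and the p-values therefore reflect only the spread between libraries, which may be technical. Whole islets also hold other endocrine, vascular, stromal and immune cells, and fewer cells of a type cannot be told apart from less RNA per cell.

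Counts assigned to genes ranged from 3507929 to 6212629 per library in the TSC1 table, from 9020767 to 17688772 in the Db table, and from 12696006 to 16222921 in the β-cell table. Depth moved with the group in both islet tables: the 2 knockout libraries were shallower than their controls, and the 2 Db libraries were deeper than theirs. Levels are CPM, the counts of a gene relative to the library size after scaling by the trimmed mean of M values (TMM) within a table, and are compared only within it. Ins2, the defining hormone gene of β-cells, was present in every library, at 4194 CPM or more. Tsc1 itself did not separate the knockout from the control: it stood at 25.1 and 54.0 CPM in RC control and at 30.9 and 34.3 CPM in the knockout (log2 fold change -0.28 with an SE of 0.38, adjusted p = 0.638 by edgeR). The groups therefore follow the labels.

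Immediate early genes are transcribed within minutes of a stimulus, from factors already in the cell, and their RNAs are short-lived. FOS, FOSB, JUN and JUNB pair to form the AP-1 transcription factor, EGR1 and the orphan nuclear receptor NR4A1 are DNA-binding factors, ATF3 is a stress-induced relative of AP-1, and DUSP1 is a phosphatase that switches off the MAP kinases. NPAS4 differs from the others in that calcium entry after membrane depolarization is its main trigger, and in β-cells it is induced by glucose and other depolarizing stimuli. Calcium and cAMP act on many of these genes through CREB, a factor that binds the cAMP response element. Dissociating a tissue can also induce immediate early genes, together with heat shock genes.

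Promoter sequence is shown to describe where letters of the cAMP response element stand in these genes. Whether the element acts on any of them in these samples was not tested. The 250 bases before the transcription start were available from RefSeq (GRCm38.p6) for 8 members, and those of Egr1 and Ier2 are not analysed here. The short form of the element, TGACG, was searched on both strands, where it reads CGTCA on the opposite strand, and it lies within the full palindrome TGACGTCA. At least 1 short form stood in 7 of the 8 windows, against 17.8% of all 32851 promoter windows of that length. Jun had none. The full palindrome stood in Dusp1 alone among the 8, against 1.55% of all windows. The sequences below run 5′ to 3′ on the strand of the gene, and the capitals mark these matches. They are Npas4 (chr19:4989972-4990221, minus strand), Fos (chr12:85473640-85473889, plus strand), Nr4a1 (chr15:101266596-101266845, plus strand) and Dusp1 (chr17:26508473-26508722, minus strand).
Npas4: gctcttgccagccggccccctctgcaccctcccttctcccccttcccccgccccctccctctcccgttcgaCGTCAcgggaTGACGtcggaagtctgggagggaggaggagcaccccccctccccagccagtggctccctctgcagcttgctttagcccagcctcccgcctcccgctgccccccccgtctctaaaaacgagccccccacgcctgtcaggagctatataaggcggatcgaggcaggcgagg
Fos: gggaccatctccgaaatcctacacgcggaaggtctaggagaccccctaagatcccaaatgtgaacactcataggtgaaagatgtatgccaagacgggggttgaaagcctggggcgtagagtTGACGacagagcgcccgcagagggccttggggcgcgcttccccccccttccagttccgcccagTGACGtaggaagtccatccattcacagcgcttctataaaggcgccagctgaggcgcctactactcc
Nr4a1: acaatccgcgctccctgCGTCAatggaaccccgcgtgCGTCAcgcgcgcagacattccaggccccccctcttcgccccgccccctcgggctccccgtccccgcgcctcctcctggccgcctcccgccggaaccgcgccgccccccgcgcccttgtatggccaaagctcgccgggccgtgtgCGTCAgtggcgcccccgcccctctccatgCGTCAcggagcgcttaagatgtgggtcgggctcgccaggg
Dusp1: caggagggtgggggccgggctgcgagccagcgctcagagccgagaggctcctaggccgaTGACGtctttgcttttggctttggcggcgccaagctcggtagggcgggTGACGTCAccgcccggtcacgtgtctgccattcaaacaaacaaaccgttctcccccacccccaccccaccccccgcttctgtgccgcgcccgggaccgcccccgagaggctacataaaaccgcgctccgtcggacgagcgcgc

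In the Npas4 window the 2 short forms lie on opposite strands, starting at -179 and -169 from the start site. Fos has 2 on the same strand, at -129 and -66, and Nr4a1 has 4, all reading CGTCA. Fosb, Junb and Atf3 have 1 each. The AP-1 element TGANTCA (6.75% of all windows) and the CArG box bound by serum response factor (1.47%) were in none of the 8. Bases further upstream were not searched, so the genes may hold either element outside the window. The E-box CANNTG was in 6 of the 8, against 66.2% of all windows, and Npas4 and Nr4a1 had none. A match describes these letters only, and says nothing of whether a factor binds there.

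Levels between genes were compared as CPM per kilobase of exon. Fos and Jun held the top 2 places in both β-cell groups, with Fos at 414 (range 34.3 to 656) and Jun at 341 (55.7 to 500.3) CPM per kilobase in neonatal cells, and at 171 and 163 in adult cells. These neighbours overlapped in both groups. Fos also led in RC control (582), in the TSC1 knockout (1322) and in Db (56.9), and was above the next member in every library of RC control and the knockout. In BKS control Junb led at 236 (128 to 344), overlapping Ier2 at 127 (102 to 152). Npas4 was the lowest of the 10 in 4 of the 6 groups. It lay below the next member in every library of RC control (20.3 against 101 for Nr4a1), of the knockout (1.74 against 153 for Fosb) and of Db (0.411 against 1.69 for Atf3). In neonatal cells it overlapped Atf3, in adult cells it stood ninth, above Atf3, and in BKS control ninth, above Fosb.

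**Figure D1:**
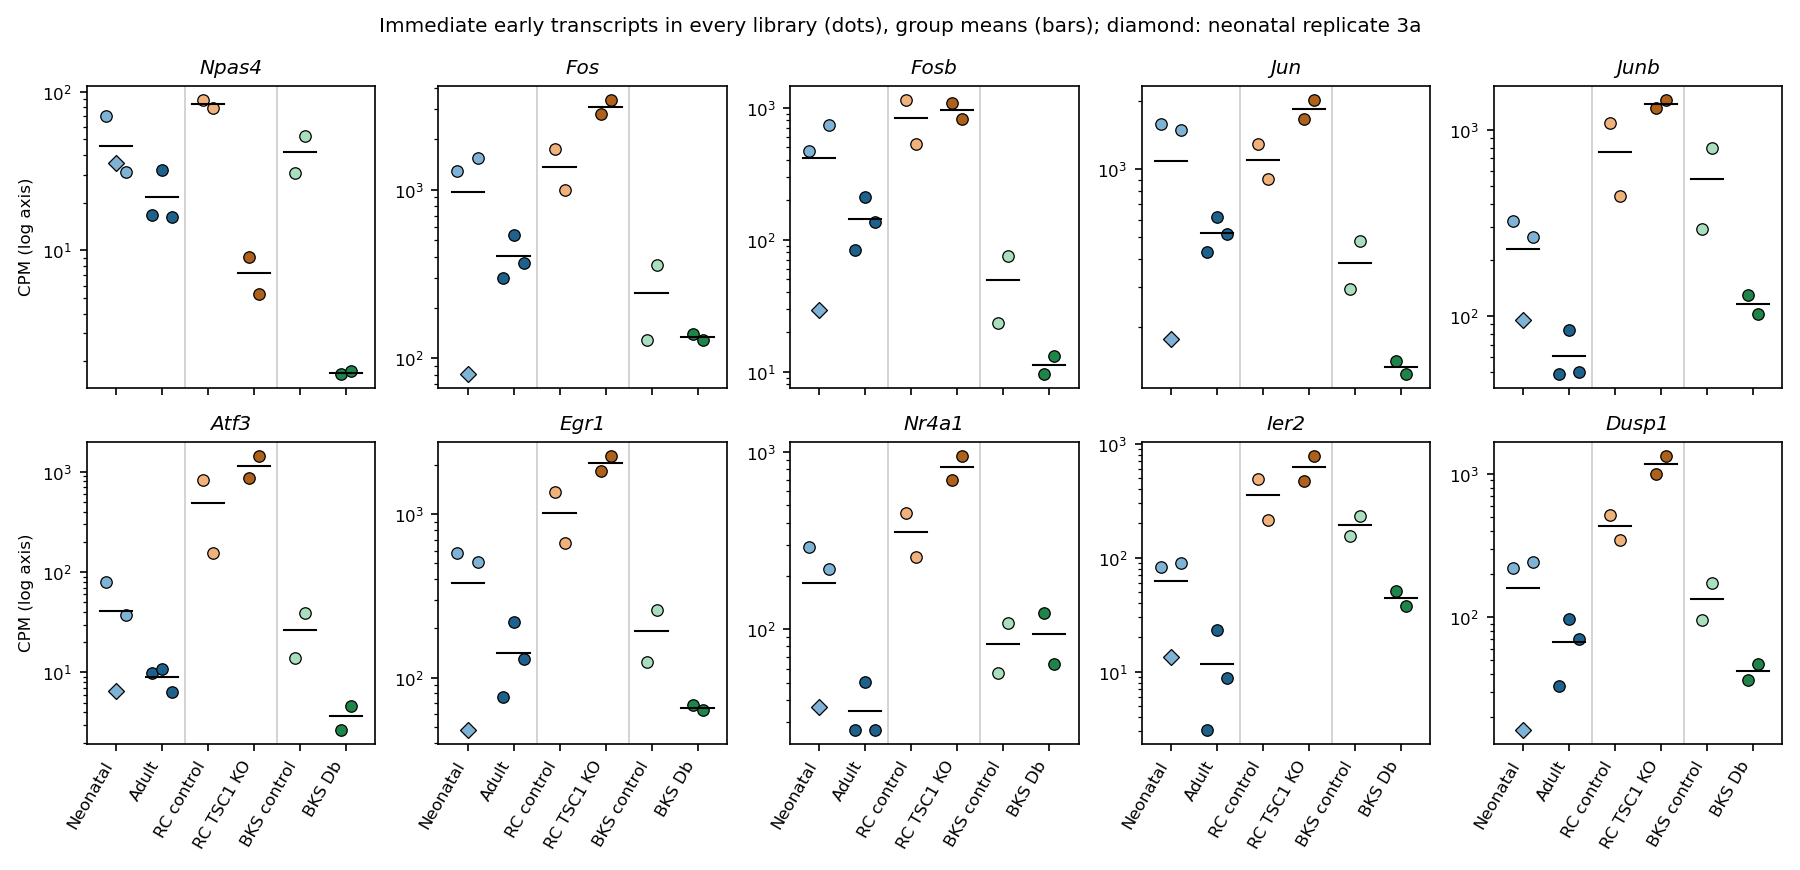
Level of each of the 10 genes in every library, in CPM on a log axis, with 1 point per library and the 6 groups side by side. Neonatal replicate 3a lies far below the other 2 neonatal libraries for most genes (80.6 CPM of Fos against 1298 and 1543), but not for Npas4 (35.7 against 70.2 and 31.0).

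In β-cells the question was how the 10 genes differ between the neonatal and the adult stage. Every member had a lower mean in adult cells, with log2 fold changes from -2.40 to -1.06 and a median of -1.48, against -0.03 over all 14304 genes tested, of which 51.5% were below 0. None passed the test (edgeR quasi-likelihood, Benjamini-Hochberg adjusted p under 0.05 over all genes), in which 3.60% of genes were called lower, 3.38% higher and 6.98% in either direction. At an unadjusted p under 0.05 there were 4, as were 20.8% of all genes. DESeq2 called 3 (Junb, Nr4a1 and Atf3), with 5.89% of all genes called lower, and limma-voom called 1 (Junb), with 2.75%.

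Cell type markers differed between the ages as well. Of 10 β-cell markers 5 rose in adult cells (median log2 fold change 0.78), their summed level going from 24354 to 33478 CPM in neonatal to 54970.4 to 90718 CPM in adult libraries. Of 9 duct markers tested 5 fell (Krt7 and Krt19 among them, median -1.12), with sums of 1241 to 1820.3 and then 753 to 895 CPM. Of 7 other endocrine markers 1 fell (median -1.40), and of 7 acinar markers 1 fell (median -0.61). The sums of endothelial (6.56 to 18.6 and 4.35 to 32.3 CPM), mesenchymal (8.26 to 198 and 10.5 to 41.3 CPM) and immune markers (18.1 to 54.3 and 43.5 to 86.2 CPM) overlapped between the ages. The part of these markers in the result was not tested.

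A single neonatal library stood apart. The neonatal columns carry the replicate numbers 1, 3 and 3 again, and the last 2 are written 3a and 3b here. The 10 genes summed to 5011 CPM in neonatal replicate 1 and 5165 in 3b, but to 538 in 3a, below the adult libraries at 1025, 1883 and 1329. In 3a the summed duct markers were the highest of the 6 libraries (1820.3 CPM against 1318 and 1241 in the other neonatal and 753 to 895 in the adult ones) and the summed immune markers the lowest (18.1 against 54.3 and 47.0, and 43.5 to 86.2). The acinar sum was also the highest (170.0 against 125 and 149, and 76.1 to 113). The mesenchymal sum was also the lowest (8.26 against 17.8 and 198, and 10.5 to 41.3). Other endocrine markers summed to 958 CPM, against 1870.4 and 2069, and 359 to 2126. The β-cell (28899 CPM) and endothelial (12.8 CPM) sums lay between those of the other neonatal libraries. The heat shock genes of 3a lay within the range of the other libraries (1348 CPM against 1474 and 1188, and 1278 to 1406). The part of these lists in the values of 3a was not tested either.

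Among the AP-1 members, Fos stood at 1298, 80.6 and 1543 CPM in neonatal cells, in the order 1, 3a and 3b, and at 298, 542 and 368 CPM in adult cells (log2 fold change -1.27, SE 1.11, adjusted p = 0.636). The range of the adult libraries lay wholly inside that of the neonatal ones. The same held for Fosb (466, 29.2 and 743 CPM, against 83.8, 211 and 135; -1.53, adjusted p = 0.593) and for Jun (1595, 178 and 1488 CPM, against 429, 615 and 518; -1.06, adjusted p = 0.612). Junb was the only member whose groups did not overlap, as were 13.4% of all genes in this direction. It measured 324, 95.2 and 264 CPM in neonatal and 48.6, 83.8 and 49.9 CPM in adult cells, a log2 fold change of -1.91 (SE 0.46, 3.75-fold lower, adjusted p = 0.0513).

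Among the other transcription factors, Egr1 was at 582, 47.6 and 507 CPM in neonatal and 75.8, 218 and 129.7 CPM in adult cells (log2 fold change -1.42, SE 1.05, adjusted p = 0.563). Nr4a1 was at 292, 36.2 and 219 CPM and then at 27.1, 50.2 and 26.9 (-2.39, SE 0.85, adjusted p = 0.213), and Atf3 at 79.7, 6.51 and 37.0 CPM and then at 9.88, 10.8 and 6.39 (-2.19, SE 0.74, adjusted p = 0.132). For Nr4a1 and Atf3 only library 3a brought the neonatal group down into the adult range. For Egr1 library 3a lay below every adult library, so the adult range was wholly inside the neonatal one. Npas4, with 70.2, 35.7 and 31.0 CPM in neonatal and 16.6, 32.3 and 16.3 CPM in adult cells, had a smaller spread (-1.07, SE 0.37, adjusted p = 0.102). Library 3a was not its lowest neonatal value, and the overlap came from 3b and adult replicate 2.

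Ier2, an early-response gene whose protein acts in the nucleus, was at 83.2, 13.4 and 89.6 CPM in neonatal and at 3.07, 23.4 and 8.78 CPM in adult cells (log2 fold change -2.40, SE 0.98, adjusted p = 0.243). Dusp1, the MAP kinase phosphatase, was at 220.3, 16.2 and 243 CPM and then at 33.1, 96.3 and 70.3 (-1.27, SE 1.10, adjusted p = 0.633). Both again overlapped through library 3a alone.

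Leaving out 3a changed the count from 0 to 6 of 10 called lower, where 4.66% of 15244 genes were. Junb fell 4.83-fold (log2 fold change -2.27, SE 0.21, adjusted p = 2.7e-07), Jun 2.96-fold (-1.56, adjusted p = 1.65e-07) and Fos 3.52-fold (-1.82, adjusted p = 3.72e-05). Nr4a1 fell 7.33-fold (-2.87, adjusted p = 8.38e-07), Atf3 6.45-fold (-2.69, adjusted p = 2.15e-05) and Npas4 2.32-fold (-1.21, adjusted p = 0.0389). Dusp1 (-1.80, adjusted p = 0.0557), Fosb (-2.08, 0.0765), Egr1 (-1.94, 0.0969) and Ier2 (-2.87, 0.150) did not pass. Each library was left out in turn, and 3a was singled out after its values were seen.

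In islets of the TSC1 knockout, the question was how the 10 genes differ from control islets. Npas4 fell 11.4-fold and was the only member called by edgeR in the fit with all 4 libraries. The other 9 had log2 fold changes above 0 that did not pass this test, and of these Fosb turned below 0 with libraries scaled by size alone. DESeq2 also called Fos (adjusted p = 0.0102), Nr4a1 (0.0113) and Dusp1 (0.000501) higher, with 8.65% of all genes called higher, and limma-voom called Dusp1 (0.0359) higher, with 9.72%. Over all 14515 genes, 10.0% were called lower, 8.63% higher and 18.6% in either direction. The median log2 fold change of the members was 0.94, against 0.00 for all genes, of which 49.8% were above 0. In 7 of the 10 both knockout libraries lay above both controls (Fos, Jun, Junb, Egr1, Nr4a1, Atf3 and Dusp1), as did 33.6% of all genes, and Npas4 lay below both controls, as did 34.1%.

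Npas4 was counted 565 and 540 times in RC control and 39 and 16 times in the knockout. These are 89.0 and 79.2 CPM in the control and 9.06 and 5.33 CPM in the knockout, a log2 fold change of -3.51 (SE 0.29, edgeR adjusted p = 0.0105). The 2 groups were far apart, and the gene ranked 100 from the lowest log2 fold change of the 14515. Leaving out knockout replicate 1 or 2 ended the call (adjusted p = 0.0892 and 0.148), and edgeR then called 0 genes in the whole table, with 3535 and 3061 at an unadjusted p under 0.05. Without either library the log2 fold change kept its sign, within the range of -3.98 to -3.21 over all alternatives.

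The AP-1 genes moved the other way in their means. Fos was at 1743 and 997 CPM in RC control and at 2799 and 3418 CPM in the knockout (log2 fold change 1.18, SE 0.44, edgeR adjusted p = 0.113). Jun was at 1295 and 905 CPM and then 1675 and 2035 (0.76, adjusted p = 0.217), and Junb at 1079.6 and 442 CPM and then 1299 and 1447 (0.85, adjusted p = 0.266). For all 3 both knockout libraries exceeded both controls. Fosb overlapped, with 1149 and 529 CPM in the control and 1092 and 824 CPM in the knockout (0.19, SE 0.47, adjusted p = 0.797), and its sign turned when libraries were scaled by size alone (-0.04).

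Egr1 was at 1372 and 665 CPM in RC control and 1846 and 2279 CPM in the knockout (log2 fold change 1.02, SE 0.47, adjusted p = 0.175). Nr4a1 was at 451 and 257 CPM and then at 698 and 953 (1.22, SE 0.40, adjusted p = 0.0842), and Atf3 at 822 and 153 CPM and then at 861 and 1436 (1.24, SE 0.82, adjusted p = 0.331). The 2 controls were themselves unequal. In CPM, for Egr1 and Atf3 they differed by more than the lower knockout library did from the higher control. The same held for Junb and, narrowly, for Jun. Ier2 overlapped, at 492 and 213 CPM against 468 and 783 (0.83, adjusted p = 0.279). Dusp1 came nearest to the threshold, at 517 and 345 CPM in the control and 993 and 1332 CPM in the knockout (1.43, SE 0.38, 2.70-fold, adjusted p = 0.0501).

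RC control replicate 1 bore on these values. The 10 genes summed to 9009 CPM in it and to 4585 CPM in replicate 2, against 11741 and 14513 CPM in the knockout. Without replicate 1, 7 members were called higher, where 14.6% of 14741 genes were, and Npas4 lower, where 12.6% were, and the median log2 fold change of the 10 was 1.64. Without replicate 2, Npas4 alone was called, on the lower side with 9.22% of 14768 genes, and the median was 0.50.

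The knockout islets also differed in their cell type markers. Of 10 β-cell markers 9 fell, with a median log2 fold change of -2.96 over the list (-5.06 to -1.11), and their summed level was 234404 and 264573 CPM in RC control and 12812 and 13316 CPM in the knockout. Of 7 other endocrine markers tested 5 fell and 1 rose (median -2.56), with sums of 26895 to 32795 CPM in the control and 2891 to 7465 CPM in the knockout. Mesenchymal markers had a median of 2.54, with 6 of 9 above both controls, 0 called by edgeR and 3 at an unadjusted p under 0.05, and sums of 952 to 1276 and 1331 to 5019 CPM. Summed duct markers were 566 and 1773 CPM in the control and 2971 to 4302 CPM in the knockout, and endothelial markers were 2468 to 2716 and 3800.1 to 5138 CPM. Acinar (1978 to 2905 and 1179 to 2932 CPM) and immune sums (316 to 394 and 314 to 332 CPM) overlapped. Of 10 heat shock genes 6 fell (median -1.53), and their summed level was 2633 to 3209 CPM in the control and 621 to 1482 CPM in the knockout. The part of these markers in the levels of Npas4 and the other 9 genes was not tested.

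In Db islets, the question was how the genes differ from control islets in a model of diabetes. Of the 10 genes 7 fell (Npas4, Jun, Junb, Egr1, Atf3, Ier2 and Dusp1), where 23.9% of 14369 genes were called lower, 24.3% higher and 48.2% in either direction. None rose. The median log2 fold change of the members was -1.89, against -0.03 over all genes. In 8 of the 10 the Db libraries lay below both controls, as in 37.5% of all genes.

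Npas4 had the largest change of the 10. It was counted 288 and 408 times in BKS control and 30 and 36 times in Db, although the Db libraries were deeper. In CPM it stood at 30.8 and 52.3 in the control and at 1.66 and 1.74 in Db, a log2 fold change of -4.60 (SE 0.29, 24.2-fold lower, adjusted p = 4.09e-12). The gene ranked 14 from the lowest log2 fold change of the 14369. The call was kept under every alternative that used all libraries. Over all 11 alternatives run, those with a library left out included, the log2 fold change lay between -4.91 and -4.14.

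Of the AP-1 genes, Jun fell from 294 and 479.8 CPM to 142 and 124 CPM (log2 fold change -1.54, SE 0.23, adjusted p = 5.54e-06), and Junb from 294 and 792 CPM to 129 and 102 CPM (-2.23, SE 0.56, adjusted p = 0.0356). Both were apart in every library. Fosb was at 23.4 and 74.6 CPM in the control and 9.55 and 13.0 CPM in Db (-2.11, SE 0.77). It did not pass the edgeR test (adjusted p = 0.138), whereas DESeq2 (0.0271) and limma-voom (4.05e-05) called it. In edgeR it was called with library size alone (6.88e-06) and with no filter (0.0268). RLE scaling (0.140) and leaving out insulin and mitochondrial genes (0.128) did not call it. With each library left out in turn its log2 fold change ranged from -2.69 to -1.02. Fos was at 129 and 356 CPM in the control and at 140.1 and 128 CPM in Db (-0.86, SE 0.54, adjusted p = 0.277), so that the Db libraries lay around the lower control. Fos was called lower by limma-voom (adjusted p = 0.0435) and by edgeR with no filter (0.00699), but not by DESeq2 (0.335). Its log2 fold change was -1.38 without BKS control replicate 1 and 0.08 without replicate 2.

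Egr1 fell from 124 and 261 CPM to 67.9 and 63.1 CPM (log2 fold change -1.55, SE 0.28, adjusted p = 0.000576). Atf3 fell from 13.8 and 38.7 CPM to 2.65 and 4.65 CPM (-2.82, SE 0.66, 7.09-fold, adjusted p = 0.0320). Ier2 fell from 155 and 231 CPM to 51.1 and 38.1 CPM (-2.11, SE 0.23, 4.33-fold, adjusted p = 4.02e-08). For Dusp1 the change was from 95.3 and 172 CPM to 36.6 and 46.8 CPM (-1.68, SE 0.25, adjusted p = 1.35e-05). In each of these 4 genes BKS control replicate 2 was the higher control, and both controls were above both Db libraries. Without that library the log2 fold change was smaller, at -1.87 for Atf3, -0.89 for Egr1 and -1.32 for Junb. Nr4a1 was the exception among the factors, at 56.7 and 109 CPM in the control and 123 and 64.0 CPM in Db (0.18, SE 0.46, adjusted p = 0.778). Its groups overlapped, and its sign turned when BKS control replicate 1 (-0.19) or Db replicate 1 (-0.35) was left out. Without BKS control replicate 2 its log2 fold change was 0.75.

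The controls of this table were also unequal: the 10 genes summed to 1216 and 2567 CPM in BKS control and to 704 and 585 CPM in Db. Of 10 heat shock genes 6 fell (median log2 fold change -0.86), with summed levels of 824 to 1159 CPM in the control and 312 to 375 CPM in Db. Of 10 β-cell markers 7 fell and 1 rose (median -0.94), and 7 of 9 acinar markers tested rose, their summed level going from 65.6 to 73.2 CPM in the control to 220.0 to 373 CPM in Db. Duct markers summed to 581 to 606 and then 1195 to 1198 CPM (4 of 8 rose, 2 fell), and mesenchymal markers to 286 to 393 and then 544 to 581 CPM (5 of 8 rose, 1 fell). Of 8 endothelial markers 4 fell and 2 rose, with sums of 840.3 to 895 and 614 to 616 CPM. Other endocrine markers summed to 3859.7 to 7569.9 and 7594 to 9935 CPM (1 of 7 rose, 1 fell), and immune sums overlapped (144 to 162 and 127 to 154 CPM). The part of these lists in the result was not tested.

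**Figure D2:**
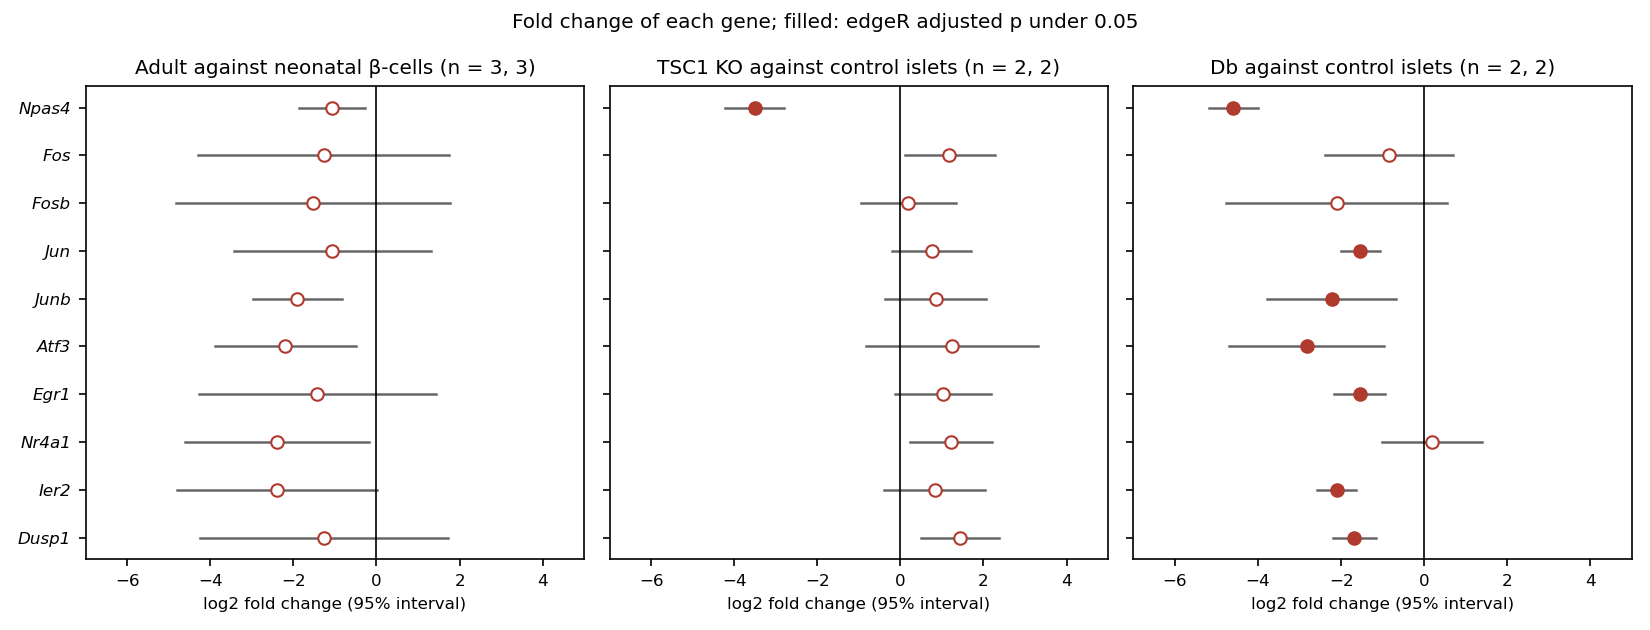
Log2 fold change of each of the 10 genes in the 3 comparisons, with 95% intervals from edgeR as lines and filled points for genes past the test. Npas4 is below 0 in all 3 (-1.07, -3.51 and -4.60), while the other 9 genes are above 0 in the TSC1 knockout (Fosb, at 0.19, turned to -0.04 with library size alone) and, but for Nr4a1 at 0.18, below 0 in Db.

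The TSC1 and Db effects, which share no libraries, were set against each other in 1 model with an interaction term. The effects differed for 6 of the 10 genes, all higher in the TSC1 comparison, where 13.2% of 15702 genes were higher and 31.8% differed in either direction. The difference in log2 fold change was 3.03 for Dusp1 (SE 0.46, edgeR adjusted p = 0.000566), 2.21 for Jun (SE 0.43, adjusted p = 0.00242), 2.86 for Ier2 (SE 0.60, adjusted p = 0.00739), 2.49 for Egr1 (SE 0.57, adjusted p = 0.00764), 3.01 for Junb (SE 0.75, adjusted p = 0.0185) and 1.96 for Fos (SE 0.62, adjusted p = 0.0364). The call of Fos was lost under 8 of 15 alternatives and that of Junb under 3. Without BKS control replicate 2 the difference was 1.02 for Fos and 2.09 for Junb, and without RC control replicate 1 it was 3.68 for Junb and 3.48 for Ier2. Atf3 (3.99, adjusted p = 0.0756) and Fosb (2.23, adjusted p = 0.0852) did not pass. For Nr4a1 the difference was 0.96 (95% interval -0.42 to 2.34, adjusted p = 0.259). For Npas4 it was 1.01 (95% interval 0.04 to 1.98, adjusted p = 0.103), so the sizes of its 2 decreases were not shown to differ. The tables also differ in age (8 and 4 weeks), in depth and, by the BKS prefix, possibly in strain. These cannot be told apart from the difference between the models. Cell type markers changed unequally too: β-cell markers had a median log2 fold change of -2.96 in the knockout and -0.94 in Db. The part of these markers in the difference was not tested.

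The weight of Npas4 among the 10 genes makes the contrast visible within each library. It made up 0.691% and 1.24% of their summed CPM per kilobase in RC control and 0.0537% and 0.0247% in the knockout. In BKS control it made up 1.60% and 1.29%, and in Db 0.155% and 0.197%. In β-cells its share was 1.02%, 4.73% and 0.444% in neonatal and 1.18%, 1.27% and 0.910% in adult libraries, so the groups overlapped and library 3a had the highest share. Set against Fos alone, the level of Npas4 per kilobase was 2.91% and 4.51% of it in RC control and 0.184% and 0.0887% in the knockout. The same ratio was 13.6% and 8.35% in BKS control and 0.672% and 0.777% in Db. In both islet tables the mutant libraries were thus below both controls by this measure too, which does not depend on how libraries were scaled. The ratio can still move with the mix of cells in the islets, and the part of that mix was not tested.

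**Figure D3:**
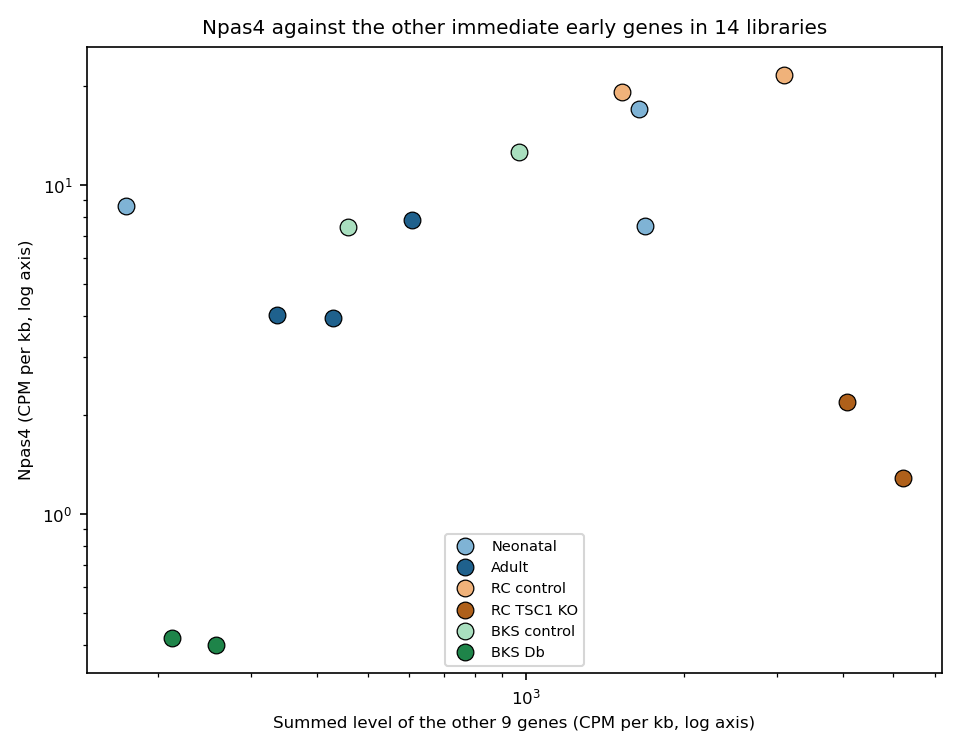
Npas4 in CPM per kilobase of exon (vertical axis, log scale) against the summed CPM per kilobase of the other 9 genes (horizontal axis, log scale), with 1 point per library, to be compared within a table. The TSC1 knockout libraries lie to the lower right of their controls, and the Db libraries to the lower left of theirs.

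Across the 14 libraries, with log2 CPM centred within each table, the members other than Npas4 moved together. The 36 pairs without Npas4 had Pearson correlations from 0.67 to 0.98 (median 0.83), and the 9 pairs with it from -0.02 to 0.44 (median 0.31). Against the mean of the other 9, Egr1 was the closest member at 0.97 and Jun followed at 0.95, while Nr4a1 stood at 0.75 and Npas4 at 0.29. Among 12158 genes that passed the filter in all 3 tables, the 8 non-members closest to the members' mean were Klf2 (0.94), Sap30 (0.91), Ppp1r2 (0.90), Nfkbia, Acat1, Rhob and Zfp36 (0.87 each) and Brca2 (0.86). Klf2 is a transcription factor of the Krüppel-like family, Nfkbia encodes an inhibitor of NF-κB, and Zfp36 encodes a protein that promotes decay of short-lived mRNAs. Each value is a description over 14 points that share libraries, scaling and the differences between groups.

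The wider network of early genes was read from 4 lists, whose counts stand beside the shares of all genes called: 3.60% lower and 3.38% higher in β-cells, 10.0% and 8.63% in the knockout, and 23.9% and 24.3% in Db. Of other immediate early factors, 20 of 22 were tested in β-cells, and 6 fell with age (Fosl2, Jund, Klf4, Klf10, Maff and Csrnp1), while none rose. Their median log2 fold change was -0.94, against -0.03 for all genes. Maff, a small Maf factor, fell 4.45-fold (40.3 to 9.06 mean CPM, adjusted p = 0.00133), Csrnp1 4.69-fold (adjusted p = 0.00845), Klf4 4.51-fold (adjusted p = 0.00847) and Fosl2, an AP-1 partner, 2.51-fold (adjusted p = 0.0463). These were called with library 3a included. In the TSC1 knockout 1 of 22 passed, the synaptic immediate early gene Arc, which fell 4.70-fold from 43.3 to 9.45 mean CPM (log2 fold change -2.23, adjusted p = 0.0229). In Db 7 of 21 rose and 6 fell. Egr3 fell 7.54-fold, from 1.22 to 0.152 mean CPM (adjusted p = 0.000918), Jund 3.09-fold (828 to 268 mean CPM, adjusted p = 9.65e-07) and Klf2 3.09-fold (adjusted p = 6.25e-07), while Nr4a3, a relative of Nr4a1, rose 4.13-fold at a low level (0.225 to 0.995 mean CPM, adjusted p = 0.0225).

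Genes listed as feedback inhibitors of signalling, of which only some act on kinases, had calls in both directions in all 3 comparisons. Of 19 tested in β-cells 4 fell and 1 rose. Sik1, a cAMP-induced kinase that restrains CREB coactivators, fell 8.10-fold (51.1 to 6.29 mean CPM, adjusted p = 0.0184). The phosphatases Dusp5 (3.15-fold, adjusted p = 0.000128) and Dusp4 (3.75-fold, adjusted p = 0.0267) also fell. Rgs2, a brake on G protein signalling, rose 10.4-fold (12.7 to 132 mean CPM, adjusted p = 0.0169). In the knockout 3 of 22 rose and 3 fell: Sik1 rose 3.89-fold (62.6 to 243 mean CPM, adjusted p = 0.0162) and Dusp16 3.22-fold (adjusted p = 0.0117), and Rgs4 (2.55-fold, adjusted p = 0.0446) and Rgs2 (2.00-fold, adjusted p = 0.0489) fell. In Db 8 of 21 rose and 3 fell. Inhibitors of the ERK pathway were among those that rose, Dusp6 8.25-fold (10.7 to 87.9 mean CPM, adjusted p = 5.89e-11), Spry2 4.31-fold (adjusted p = 1.5e-06) and Dusp4 3.69-fold (adjusted p = 1.64e-07), and Spred1 fell 3.56-fold (adjusted p = 3.7e-05).

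Of later activity-induced and secreted genes, 1 of 15 fell in β-cells, the kinase Plk2 (3.45-fold, adjusted p = 0.0126). In the knockout 4 of 17 fell and 1 rose. The prohormone convertase gene Pcsk1 fell 6.75-fold (169.8 to 25.2 mean CPM, adjusted p = 0.0164), the secretogranin gene Scg2 6.50-fold (1255 to 193 mean CPM, adjusted p = 0.0165) and Vgf, which encodes a granule protein, 5.38-fold (adjusted p = 0.0203). These genes are also part of the secretory granule of endocrine cells, and β-cell markers fell in the same islets. In Db 4 of 16 rose and 5 fell. Vgf rose 8.55-fold (87.1 to 745 mean CPM, adjusted p = 2.47e-11) and Plk3 3.43-fold (adjusted p = 0.00127), while the growth-arrest genes Gadd45b (6.81-fold, adjusted p = 0.0465) and Gadd45g (3.80-fold, adjusted p = 1.94e-08) fell.

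Of upstream activators and partners, 2 of 34 passed in β-cells: Nfatc2, a calcineurin-regulated factor, fell 1.88-fold (adjusted p = 0.00780), and the kinase gene Mapk9 rose 1.85-fold (adjusted p = 0.0257). In the knockout 5 of 34 rose and 2 fell. Camk2b, a calcium/calmodulin-dependent kinase, fell 5.39-fold (186 to 34.3 mean CPM, adjusted p = 0.0138) and Nfatc2 2.66-fold (adjusted p = 0.0415). Rps6ka1 rose 3.30-fold (adjusted p = 0.0215) and Nfatc1 2.70-fold (adjusted p = 0.0134). In Db 11 of 33 rose and 11 fell, and Creb1, which encodes CREB, fell 2.95-fold (12.8 to 4.33 mean CPM, adjusted p = 2.53e-05). Mef2c, a calcium-responsive factor, fell 2.53-fold (adjusted p = 0.000729), while Nfatc1 rose 5.21-fold (adjusted p = 7.65e-08) and the CREB coactivator gene Crebbp 2.47-fold (adjusted p = 5.1e-05).

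**Figure D4:**
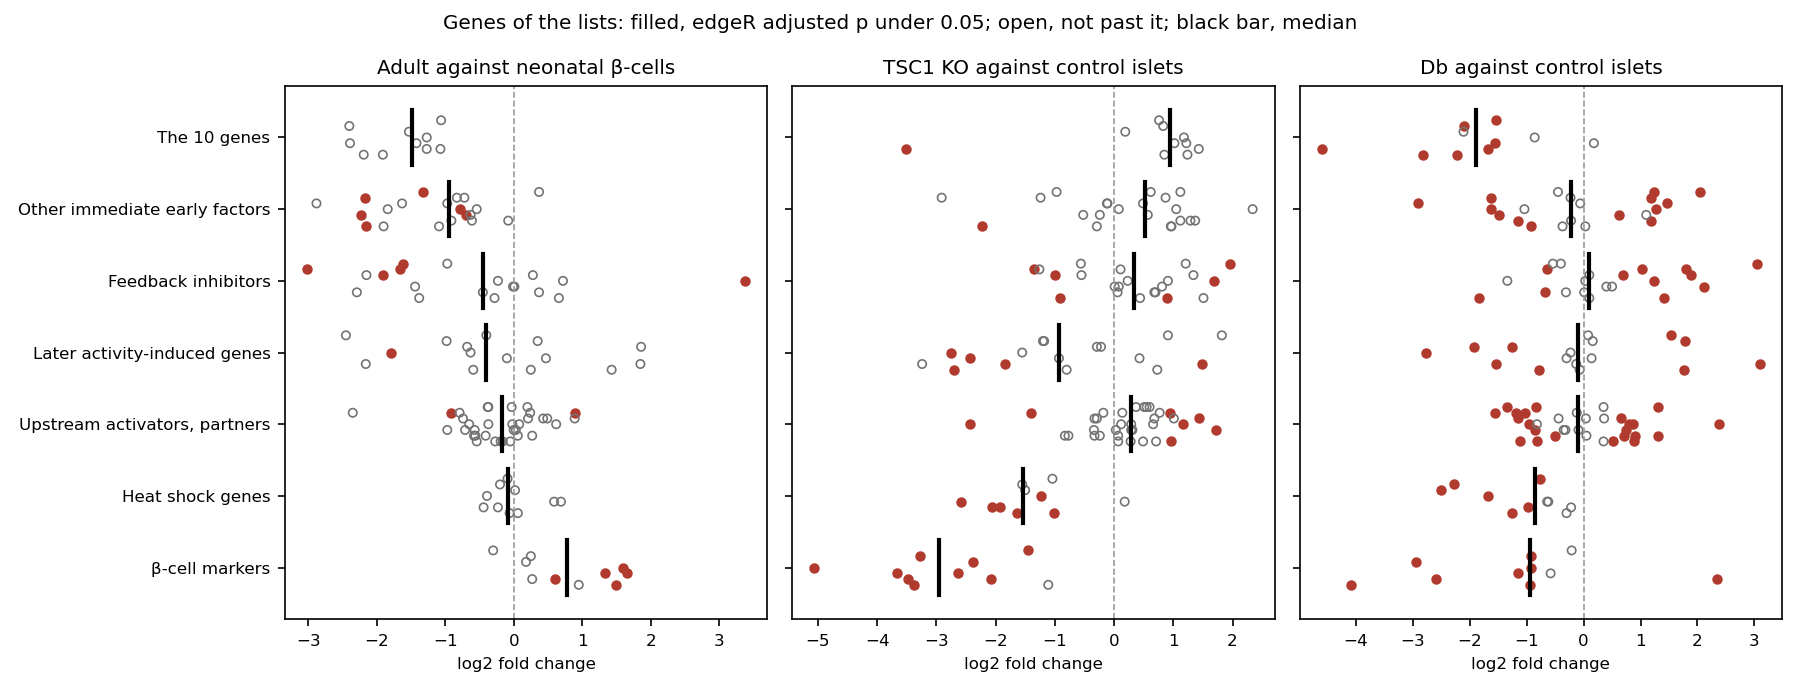
Log2 fold changes of the 10 genes, 4 lists of related genes, heat shock genes and β-cell markers in the 3 comparisons, with 1 point per gene tested, filled where it passed the test, and a black line at the median of the list. In Db the 10 genes have a median of -1.89, while the medians of the 4 related lists lie between -0.22 and 0.10. Heat shock genes (-0.86) and β-cell markers (-0.94) also have medians below 0 there.

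Some members share their locus with another gene, and the labels do not give the strand setting of the counting, so their reads may not be separated. Junos, antisense to Jun, had 112 and 111 CPM in RC control and 188 and 199.9 CPM in the knockout (adjusted p = 0.0555), and fell in Db from 55.2 and 98.2 CPM to 22.3 and 20.8 CPM (log2 fold change -1.83, adjusted p = 1.11e-06), beside the -1.54 of Jun. Prdx2 and Ergic1, which overlap Junb and Dusp1 on the opposite strand, rose in Db (0.70, adjusted p = 0.0116, and 1.85, adjusted p = 4.39e-08), where Junb and Dusp1 fell. Npas4, Fos, Fosb, Egr1, Nr4a1 and Ier2 overlap no other gene in the GRCm38 models.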

How the data were processed

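Strand-specific RNA sequencing libraries (SMARTer Stranded kit, small amounts of total RNA, Trizol extraction for islets, per the labels' protocols) were deposited as 3 tables of raw read counts per Ensembl gene, made by the authors. The submitters' processing notes name cutadapt 1.13, GSNAP 2016-08-10, HTSeq 0.7.1, DESeq2 1.16.0 and the builds NCBIM37 and mm9, without their roles. The strand setting of the counting was not stated. Rows naming no gene held 55.73 to 75.48% of the entries of a library in the β-cell and Db tables, and were left out.

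Symbols were matched by identifier for 32620 of 37310 (87.4%). Genes were filtered with edgeR's filterByExpr (minimum count 10, total 15), scaled by TMM and tested per table with edgeR 4.0.16's two-sided quasi-likelihood test (robust, R 4.3.3), with p-values adjusted by Benjamini-Hochberg across the table and called under 0.05. Standard errors are the absolute log2 fold change divided by the square root of F. The pipeline was tested on simulated data. CPM are counts relative to the TMM-scaled library size, so a sum over genes is not a share of the library, and CPM per kilobase uses exon length in GRCm38 models. Likeness is Pearson correlation of log2(CPM + 0.5). Counting error alone is small beside the spread between libraries: chi-square per degree of freedom between libraries of a group was 10.0 to 81.3, so none was a duplicate.

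The members and 12 further lists were chosen with earlier results of these data known. Named are all 10 members, and in each comparison up to 4 called genes of each of 4 related lists with the largest change among those whose groups do not overlap, and the 8 genes most like the members. A gene that the rule names is not reported here. Other lists, for β-cell, other endocrine, acinar, duct, endothelial, mesenchymal and immune markers and heat shock genes, are given as counts or sums. Alternatives were DESeq2 1.42.0, limma-voom (limma 3.58.1), library size alone, RLE scaling, no filter, insulin and mitochondrial genes left out, each library left out, and a replicate block. Same-numbered islet libraries did not deviate together (correlations -0.06 and -0.05). With 2 libraries a group this cannot exclude that the numbers pair them, and the main fits used no pairing.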

Additional observations from a re-analysis of the deposited data

Results flagged for a closer look

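For 6 of the 10 genes the changes in TSC1 knockout and in Db islets against their controls differed by the interaction test in edgeR. In each case the TSC1 comparison had the higher value. Age, depth and the changes in cell type markers differed too, so a response to TSC1 loss is not shown. Of all 15702 genes tested, 13.2% were called in this direction and 31.8% in either direction. The difference in log2 fold change was 1.96 for Fos, 2.21 for Jun, 3.01 for Junb, 2.49 for Egr1, 2.86 for Ier2 and 3.03 for Dusp1. In the TSC1 comparison alone edgeR called none of the 6, while DESeq2 called Fos (adjusted p = 0.0102) and Dusp1 (0.000501) higher and limma-voom Dusp1 (0.0359). Of all genes in that comparison DESeq2 called 8.65% higher and limma-voom 9.72%. In Db edgeR called all but Fos lower, as it did 23.9% of all 14369 genes. No group held enough libraries for a check of single outlying values.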

How the results depend on the processing

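With 2 or 3 libraries a group, a single library decides many calls, and leaving out 1 of 2 assumes that the remaining one varies like the other group. In β-cells the count of genes called was 999, against 1588 with DESeq2 and 405 to 1380 with each library left out. Members called were 0, against 3 with DESeq2, 1 with limma-voom, 2 with library size only, 1 with RLE scaling, 3 with no filter, and 0 to 6 with each library left out (6 without neonatal replicate 3a). In the TSC1 comparison 2703 genes were called, against 1648 with the replicate block and 0 to 4015 with each library left out. Members called were 1, against 4 with DESeq2, 2 with limma-voom, 2 with RLE scaling, 3 with no filter, 2 with insulin and mitochondrial genes left out, and 0 to 8 with each library left out. The members' median log2 fold change ranged from 0.50 to 1.64 over libraries left out. In Db 6919 genes were called, against 4419 to 6666 with each library left out, and the members' median of -1.89 ranged from -2.18 to -1.14. The interaction called 4988 genes, and 2910 to 5909 with each library left out.

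Scaling by library size alone moved the median of all genes to -0.19 in β-cells, -0.25 in the TSC1 comparison, 0.29 in Db and -0.47 in the interaction. Calls higher and lower went from 484 and 515 to 321 and 872, from 1252 and 1451 to 756 and 1961, from 3488 and 3431 to 3983 and 1562, and from 2066 and 2922 to 868 and 3811. Signs turned for Fosb in the TSC1 comparison (-0.04 with library size only, -0.26 without RC control replicate 2, -0.03 without knockout replicate 1, up to 0.86 without RC control replicate 1), for Fos in Db (0.08 without BKS control replicate 2, down to -1.38 without replicate 1) and for Nr4a1 in Db (-0.19 without BKS control replicate 1, -0.35 without Db replicate 1, up to 0.75 without BKS control replicate 2). The cause was not tested. With the replicate block in edgeR Npas4 had a log2 fold change of -3.56 (adjusted p = 0.0224) in the TSC1 comparison and -4.57 (adjusted p = 1.32e-50) in Db. In Db the block called 6614 genes and 9 members, Fos and Fosb among them. With 2 libraries a group the block leaves few residual degrees of freedom. Its p-values therefore rest largely on the variance estimated over all genes, and add no support to the calls. No paired analysis was possible for the β-cells because the neonatal columns carry the number 3 on 2 of them and no number 2.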
